A study of Mus musculus with 12 samples.

Results

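The circadian clock of a cell is a loop of transcription factors that repress their own production, and the genes described here are its core: the Period genes Per1, Per2 and Per3, the cryptochromes Cry1 and Cry2, and the activators Clock and Arntl. They were taken as the rows of the deposited expression table with these gene names, Arntl being the name used there for Bmal1, which gave 7 of the 55806 genes in the table. Steady-state transcript was measured by RNA-seq in mouse osteoclasts, the multinucleated cells that resorb bone. Bone marrow monocytes from mice of 8 to 12 weeks of age had been differentiated with M-CSF and RANKL, the growth factor and the differentiation signal of this lineage, and were sampled at day 4. The 12 libraries made 4 groups of 3, a control and a Per1 knockout group for males and the same for females, each library with a replicate number from 1 to 3 that is also a batch number. Library names write the knockout allele as "cKO", a common short form for a conditional knockout, and the labels name neither the part of the gene that is deleted nor the driver of the deletion. The labels call the replicates biological and do not say whether each is a separate animal or culture, so a p-value here reflects the scatter of these particular libraries.

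In the mammalian clock, the proteins CLOCK and BMAL1 bind E-boxes in DNA as a pair and switch on the Period and cryptochrome genes. PER and CRY proteins then gather in a complex that silences the CLOCK and BMAL1 pair, while the kinases CK1 delta and CK1 epsilon and several ubiquitin ligases set how long that complex lasts. Side loops act through REV-ERB and ROR receptors at ROR elements and through the proteins DBP, TEF and NFIL3 at D-boxes, and in bone the clock genes have been studied in both bone-forming and bone-resorbing cells. A culture sampled at 1 time gives a level and not a rhythm.

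The cultures carried osteoclast transcript in every library, with 10 osteoclast markers summing to 9860 to 17711 FPKM (fragments per kilobase of gene, scaled by library size). Markers of other bone marrow cells were present at lower sums, at 399 to 876 FPKM for 8 monocyte and macrophage genes, 1385 to 2848 for 8 neutrophil genes, 9.73 to 40.3 for 8 lymphocyte genes, 0.291 to 2.63 for 7 stromal genes and 1.30 to 7.37 for 5 erythroid genes. Between 15366600 and 24346288 fragments fell on genes in a library. Female control 2, female knockout 1 and female knockout 2 stood apart, since 14 interferon response genes summed to 815 to 1058 FPKM in them and to 88.7 to 270 FPKM in the other 9 libraries. In bulk RNA, fewer cells that express a gene and less of its RNA per cell cannot be told apart.

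Promoter sequences were searched for exact letters of elements of the clock loops, so a spelling that differs by 1 letter was not counted. RefSeq windows of the 250 bases before the transcription start on GRCm38.p6 were found for 6 of the 7 genes, in 10 windows, and Per2 had none in that table. Both strands were searched for the E-box CACGTG, the E-prime box CACGTT, the D-box TTATGTAA, the cyclic AMP response element TGACGTCA and its shorter core TGACGT, and the ROR element core TAGGTCA. The core lies within the full element. Matched letters are in capitals, bases read 5′ to 3′ on the strand of the gene, and the windows of Per3, Per1, Cry1 and Cry2 are those with a match.
Per3, chr4:151044666-151044915, minus strand: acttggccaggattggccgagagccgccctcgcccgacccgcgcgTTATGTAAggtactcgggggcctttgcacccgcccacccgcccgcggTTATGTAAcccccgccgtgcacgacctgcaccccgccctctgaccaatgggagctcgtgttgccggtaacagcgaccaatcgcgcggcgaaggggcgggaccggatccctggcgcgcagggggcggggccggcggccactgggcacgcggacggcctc
Per1 window 1, chr11:69098699-69098948, plus strand: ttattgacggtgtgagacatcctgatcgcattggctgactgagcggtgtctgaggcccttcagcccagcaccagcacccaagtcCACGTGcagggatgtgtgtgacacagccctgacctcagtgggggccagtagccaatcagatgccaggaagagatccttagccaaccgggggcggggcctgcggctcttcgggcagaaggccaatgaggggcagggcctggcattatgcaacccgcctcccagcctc
Per1 window 2, chr11:69099902-69100151, plus strand: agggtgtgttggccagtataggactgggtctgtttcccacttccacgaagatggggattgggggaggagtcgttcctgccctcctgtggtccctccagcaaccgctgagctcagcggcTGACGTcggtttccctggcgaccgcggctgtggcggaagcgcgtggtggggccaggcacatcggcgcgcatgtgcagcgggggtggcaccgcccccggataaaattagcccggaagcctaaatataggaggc
Cry1, chr10:85185055-85185304, minus strand: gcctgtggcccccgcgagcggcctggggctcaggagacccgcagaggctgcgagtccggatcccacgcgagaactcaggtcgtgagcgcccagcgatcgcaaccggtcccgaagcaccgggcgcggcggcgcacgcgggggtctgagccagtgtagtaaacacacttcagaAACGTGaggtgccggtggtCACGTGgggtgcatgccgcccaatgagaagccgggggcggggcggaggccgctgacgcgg
Cry2, chr2:92434070-92434319, minus strand: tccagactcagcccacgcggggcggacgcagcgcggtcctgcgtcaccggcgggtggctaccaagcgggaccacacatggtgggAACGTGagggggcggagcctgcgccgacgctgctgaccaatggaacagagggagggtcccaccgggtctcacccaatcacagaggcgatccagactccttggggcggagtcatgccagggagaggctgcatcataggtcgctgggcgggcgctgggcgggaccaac

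The Per3 window held D-boxes starting at bases -205 and -158 from the start. A D-box was present in 0.819% of 32851 windows of the same length and more than 1 in 6 windows (0.0183%). The upstream Per1 window held an E-box at -166, an element present in 6.02% of windows, and the downstream Per1 window held the cyclic AMP core at -132, which 6.47% of windows hold. Cry1 had an E-box at -60 and an E-prime box at -79, and Cry2 had an E-prime box at -166, the latter element being present in 3.85% of windows. The full cyclic AMP response element (1.55% of windows) and the ROR core (2.23%) were matched in none of the 10 windows. The 3 Clock windows and the 2 Arntl windows held none of the searched letters. These matches describe letters and not binding.

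**Figure D1:**
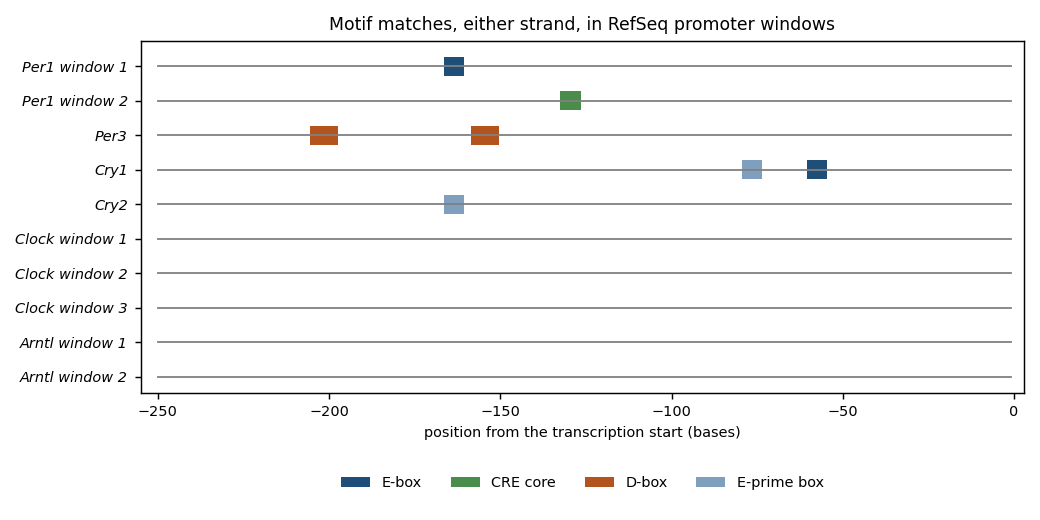
Positions of motif matches in the 10 RefSeq promoter windows, drawn as boxes to scale on a horizontal axis of bases from the transcription start. Per3 has D-boxes at -205 and -158, while the windows of Clock and Arntl are empty.

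Per1 encodes the period repressor that answers quickly to serum, cyclic AMP and glucocorticoid signals, and it is the gene named in the genotype label. Its row (ENSMUSG00000020893) lies on the plus strand of chromosome 11 between 68986043 and 69000786 in the coordinates of the table, whose build is uncertain. Male control libraries 1 to 3 had 3.70, 3.63 and 2.69 FPKM and male libraries labelled knockout 2.36, 2.66 and 2.99. Female control libraries had 2.46, 3.33 and 3.03 FPKM and female libraries labelled knockout 4.04, 3.83 and 2.82. The ranges overlapped in both sexes, and the highest value of all 12 was in female knockout 1. The mean was 79.9% of control in males, from 3.34 ± 0.563 to 2.67 ± 0.314 FPKM (SD, n = 3), and 121% of control in females, from 2.94 ± 0.441 to 3.57 ± 0.651 FPKM. On the log2(FPKM + 1) scale the difference was -0.24 in males (limma adjusted p = 0.448) and 0.21 in females (limma adjusted p = 0.542). Transcript assigned to the whole gene was thus not lower past the test in either sex. With n = 3 per group and the deleted part not named, this test cannot decide whether the label holds. The directions that follow compare libraries by their labels. No exon values were analysed here, so loss of a part of the gene was not checked.

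The opposite directions of Per1 were tested as a difference between the sexes, female minus male, which was 0.44 ± 0.19 (SE) in log2 units. It reached an unadjusted p of 0.0416 and an adjusted p of 0.282 by limma, and an exact permutation of genotype labels within each sex gave a two-sided p of 0.05. Here and below, the null of that exact test is no genotype difference in either sex. A genotype difference in a single sex can lower its p, so it does not by itself show unlike effects. Same-numbered pairs, which share a batch number, differed by -0.48, -0.34 and 0.11 in males and by 0.54, 0.16 and -0.07 in females. Neither sex thus had 1 sign in all 3 pairs. Among the 6 female libraries the 3 with a strong interferon response also held the 3 highest Per1 values, at 3.33 to 4.04 FPKM. Without these libraries, which leaves 1 female knockout against 2 controls with the spread taken from the other groups, the female difference was 0.03 and the difference between the sexes 0.27 (limma adjusted p = 0.593). The part of the interferon response in this result was not tested further.

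Per3 showed the widest gap between labelled groups among the 7 genes. It encodes the Period protein that is least needed for rhythm in mice, and its row (ENSMUSG00000028957) lies on the minus strand of chromosome 4, from 151088109 to 151129122. Female libraries labelled knockout had 1.49, 1.53 and 1.29 FPKM, and female controls had 0.642, 0.740 and 0.712. Male controls had 1.08, 0.662 and 0.763 FPKM and male libraries labelled knockout 0.738, 0.667 and 0.769. Every female knockout library was above all 9 other libraries, whereas the male groups overlapped. The female mean was 206% of control, at 0.698 ± 0.0502 and 1.44 ± 0.130 FPKM (SD, n = 3), and the male mean 86.6%, at 0.836 ± 0.221 and 0.725 ± 0.0521.

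The female difference of Per3 was 0.52 ± 0.11 (SE) on the log2(FPKM + 1) scale, with an unadjusted limma p of 0.000882, the 37th lowest of 12237 genes tested, and an adjusted p of 0.281. It therefore did not pass the adjusted threshold of 0.05. The exact two-sided permutation p was 0.1, the smallest that 3 against 3 libraries allow. Same-numbered pairs differed by 0.60, 0.54 and 0.42 in females and by -0.26, 0.00 and 0.00 in males. The difference between the sexes was 0.60 ± 0.16 (SE), with a limma p of 0.0034, an adjusted p of 0.200 and an exact permutation p of 0.035. The 2 highest Per3 values were in female knockouts 1 and 2, which had a high interferon response, while female knockout 3, of low response, had 1.29 FPKM and female control 2, of high response, had 0.740. The part of the interferon response in the Per3 difference was not tested. Without the 3 libraries of high interferon response the female difference was 0.45 (limma adjusted p = 0.675, again with 1 knockout library).

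Because Per3 lies near 1 FPKM, the added constant of 1 compresses its change. In fragments rebuilt from the FPKM values and fitted with voom, the female difference was 1.05 in log2 units (adjusted p = 0.196). With library weights estimated from the data, which gave female knockout 1 a weight of 4.72, the difference of 0.57 passed (limma adjusted p = 0.00588), as did 3984 of the 12237 genes tested in females. The usual estimate of these weights did not converge and a gene-by-gene estimate was used, so that call is not relied on. In the female groups the summed osteoclast markers were 9860 to 12583 FPKM in knockouts and 11950 to 14693 in controls. The lymphocyte markers were at 15.3 to 40.3 and 15.8 to 31.5, so both sums overlapped. By gene, 10 of 10 osteoclast markers had a negative female limma difference. Their median was -0.25, against -0.0083 over all genes tested. Of 5 tested lymphocyte markers 4 were positive and 1 negative. The part of these cells in the Per3 difference was not tested. Each Per3 value rested on 110 to 267 fragments. Per3 reached 1 FPKM in 4 libraries, of which 3 were the female knockouts, so it passed the filter on low values through the group where it was high.

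Per2, an indispensable repressor of the rhythm in mice, had the lowest level and was removed by the filter, since it reached 1 FPKM in 0 libraries. Its row (ENSMUSG00000055866, chromosome 1, 91343704 to 91387046, minus strand) held 35 to 74 fragments per library. Female libraries labelled knockout had 0.585, 0.543 and 0.558 FPKM and female controls 0.538, 0.324 and 0.382. The female ranges did not overlap, by a narrow margin of 0.543 against 0.538 FPKM. Among the genes tested, which do not include Per2, 6.38% were separated and higher in female knockouts. Male controls had 0.488, 0.377 and 0.483 FPKM and male libraries labelled knockout 0.429, 0.372 and 0.464, which overlapped. The mean was 135% of control in females and 93.7% in males. With a filter of 0.1 FPKM the female log2 difference was 0.15 (limma adjusted p = 0.425 over 19566 genes), and the exact permutation p was 0.1 in females and 0.5 in males. The difference between the sexes had an exact permutation p of 0.075.

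**Figure D2:**
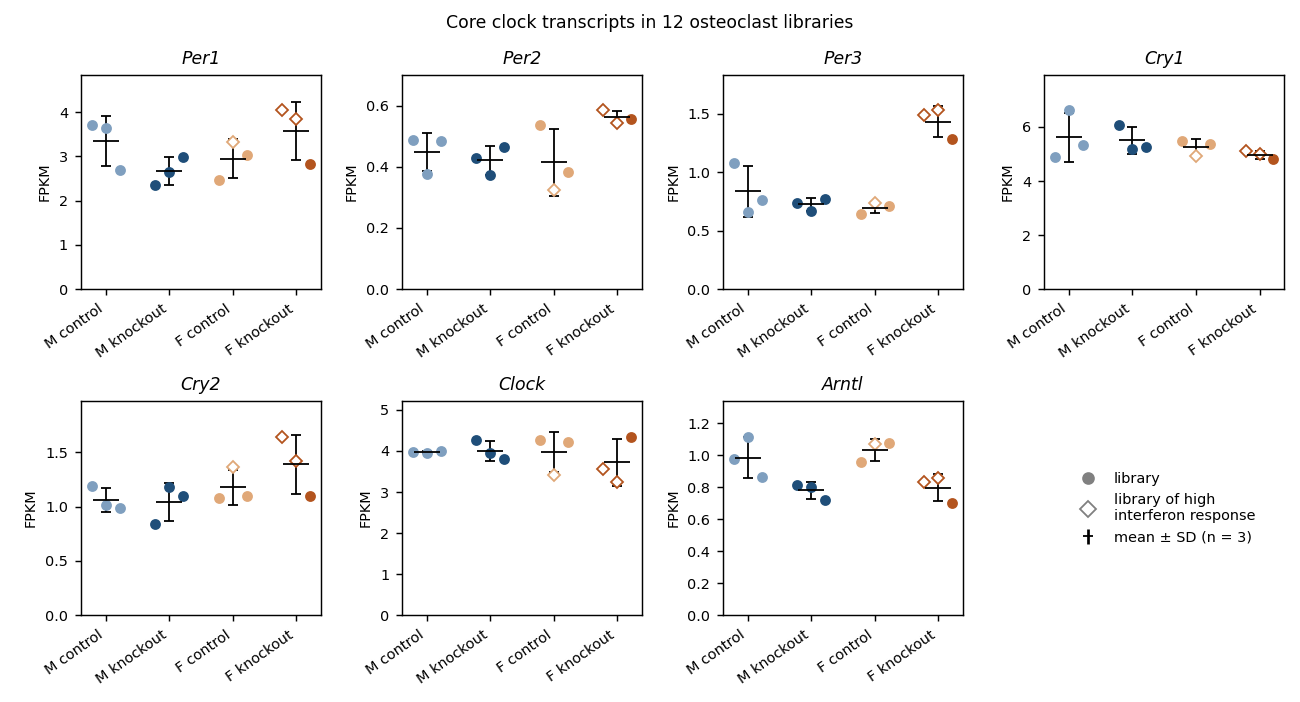
FPKM of each core clock gene in the 12 libraries, by sex and labelled genotype, on axes that start at 0. Points are libraries, open diamonds are the 3 libraries of high interferon response, and bars are the mean ± SD of 3 libraries. Per3 sits at 1.29 to 1.53 FPKM in female knockouts and at 0.642 to 1.08 FPKM elsewhere, and Arntl is lower in both knockout groups.

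Arntl encodes BMAL1, the activator without which the mouse clock does not run, and was the gene of the 7 whose groups were separated in the same direction in both sexes. Its row (ENSMUSG00000055116) lies on the plus strand of chromosome 7, from 112806672 to 112913333. Male controls had 0.975, 1.12 and 0.863 FPKM and male libraries labelled knockout 0.817, 0.805 and 0.722. Female controls had 0.956, 1.07 and 1.07 FPKM and female libraries labelled knockout 0.832, 0.861 and 0.704. In each sex every knockout library was below every control library, and the highest knockout value, 0.861 FPKM, was just under the lowest control value, 0.863 FPKM. The mean was 79.3% of control in males (0.985 ± 0.128 and 0.781 ± 0.0519 FPKM) and 77.2% in females (1.04 ± 0.0685 and 0.799 ± 0.0833 FPKM, SD, n = 3).

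Averaged over both sexes, the Arntl difference was -0.17 ± 0.07 (SE) on the log2(FPKM + 1) scale, with an unadjusted limma p of 0.0416 and an adjusted p of 0.470. The exact permutation test stratified by sex gave a two-sided p of 0.005, the smallest its 400 arrangements allow, and exchanging labels within same-numbered pairs gave 0.03125, the smallest of 64 arrangements, with Arntl lower in 6 of 6 pairs. The pairs differed by -0.12, -0.23 and -0.11 in males and by -0.09, -0.16 and -0.28 in females. Without the 3 libraries of high interferon response the averaged difference was -0.20. That setting leaves 1 female knockout library, which at 0.704 FPKM had the lowest Arntl value of all 12. These exact values are for 1 gene of the 7 examined and carry no adjustment. On the same stratified test 8.14% of the 12237 genes tested had a p under 0.05, and 4.58% had such a p and were lower in knockout. In males the summed monocyte and macrophage markers were lower too, at 399 to 482 FPKM in knockout and 547 to 638 FPKM in control libraries. In females these sums overlapped at 563 to 876 and 580 to 819 FPKM, but single markers went both ways. By limma difference 8 of 8 markers were negative in males, while in females 3 were negative and 5 positive. Mrc1 was separated and lower in both sexes, at 63.2% and 80.7% of control, as 0.711% of tested genes were. The part of those cells in the Arntl difference was not tested. Arntl rested on 98 to 169 fragments and reached 1 FPKM in 3 libraries, all of them controls, so it passed the filter on low values through the group where it was high.

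Clock, which encodes the partner of BMAL1, did not differ past the test between genotypes in either sex. Its row (ENSMUSG00000029238) lies on the minus strand of chromosome 5, from 76357715 to 76452639, and held 784 to 1379 fragments. Male controls had 3.98, 3.95 and 4.01 FPKM and male libraries labelled knockout 4.27, 3.95 and 3.80. Female controls had 4.28, 3.42 and 4.23 FPKM and female libraries labelled knockout 3.57, 3.24 and 4.35. Both sexes overlapped, at means of 101% and 93.6% of control. The log2 difference was 0.01 in males, with a 95% confidence interval of -0.20 to 0.22, and -0.08 in females, with an interval of -0.29 to 0.13 (limma adjusted p = 0.988 and 0.733). Without the 3 libraries of high interferon response the female difference changed sign, to 0.03.

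Cry1 and Cry2 encode the strong repressors of the PER and CRY complex. Cry1 (ENSMUSG00000020038, chromosome 10, 84967564 to 85020928, minus strand) had 4.88, 6.62 and 5.34 FPKM in male controls and 6.09, 5.19 and 5.25 in male libraries labelled knockout. Female controls had 5.48, 4.94 and 5.38 FPKM and female libraries labelled knockout 5.09, 4.98 and 4.81. All groups overlapped, at 98.2% of control in males and 94.2% in females. The 95% intervals of the log2 difference were -0.22 to 0.19 in males and -0.28 to 0.14 in females (limma adjusted p = 0.959 and 0.753).

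Cry2 (ENSMUSG00000068742, chromosome 2, 92233991 to 92264388, minus strand) had 1.19, 1.01 and 0.984 FPKM in male controls and 0.844, 1.18 and 1.10 in male libraries labelled knockout. Female controls had 1.08, 1.36 and 1.09 FPKM and female libraries labelled knockout 1.64, 1.42 and 1.10. The groups overlapped in both sexes, at 98.1% and 118% of control, and the log2 intervals were -0.28 to 0.25 in males and -0.13 to 0.39 in females (limma adjusted p = 0.969 and 0.655). Without the 3 libraries of high interferon response the female difference was 0.01.

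Across the whole table, knockout against control called 0.00817% of the 12237 genes tested in males, 0% in females, 0.00817% with both sexes averaged and 0% for the difference between the sexes, at an adjusted limma p under 0.05. None of the 6 clock genes that passed the filter was called in any of these comparisons. At an unadjusted p under 0.05, 0 of the 6 stood in males (background 14.6%), 1 in females (Per3, 11.4%), 2 in the average (Per3 and Arntl, 10.4%) and 2 in the difference between the sexes (Per1 and Per3, 17%). Of the 6, 1 was separated between groups and lower in male knockouts (Arntl, background 10.9%) and 0 were separated and higher (12.5%). In females 1 was separated and higher (Per3, 6.38%) and 1 was separated and lower (Arntl, 6.85%). Arntl alone was separated and lower in both sexes, as 0.711% of tested genes were, and none was separated and higher in both (0.523%). Per3 and Arntl passed the filter on low values through the group where each was high, 3 female knockouts for Per3 and 3 control libraries for Arntl, so their separation was favoured by the filter and the shares beside them lend it no support. By the exact test of the difference between the sexes 1 of the 6, Per3, had a p under 0.05, against 13.3% of tested genes. With voom on rebuilt fragments none of the 6 passed an adjusted p in these comparisons either. Single genes among 6 are counted here, and no count is read as a property of the group.

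**Figure D3:**
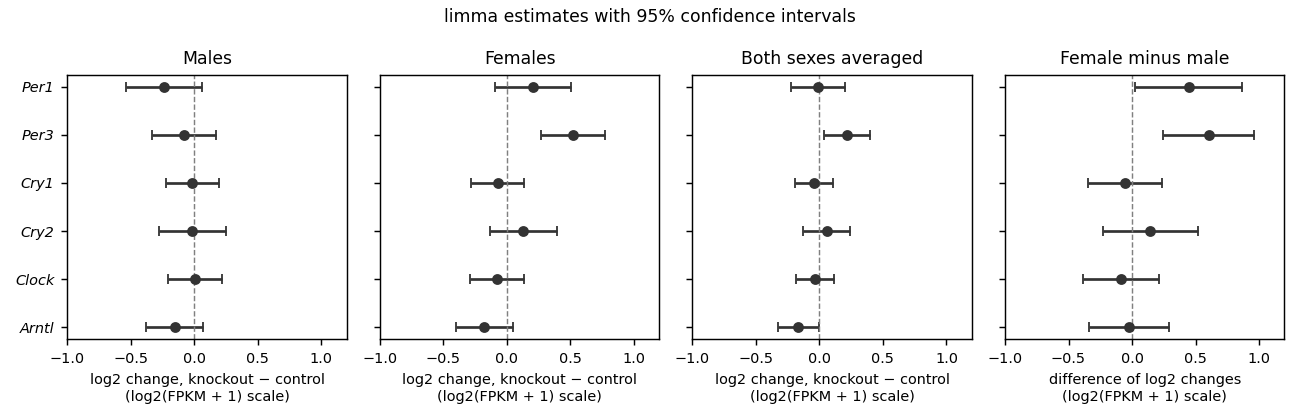
limma differences of log2(FPKM + 1) with 95% confidence intervals for the 6 clock genes tested, in males, in females, averaged over both sexes, and as the female minus the male difference. Per3 is at 0.52 in females and 0.60 in the difference between the sexes, and Arntl is near -0.17 in both sexes and their average.

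Between the sexes, control libraries were compared for the 6 clock genes tested, and 3 libraries per group cannot show that levels are equal. The female minus male log2 difference among controls ran from -0.14 for Per1 (3.34 FPKM in males and 2.94 in females) to 0.08 for Cry2 (1.06 and 1.18 FPKM), and 0 of the 6 were called at an adjusted p (background 0.0572%) or at an unadjusted p under 0.05 (5.57%). With genotypes averaged, Per3 was higher in females by 0.20 (unadjusted p = 0.0346 and adjusted p = 0.185 by limma across all genes), and it was the 1 gene of 6 under an unadjusted 0.05 (22.5%), while 0 were called at an adjusted p (0.286%). That average rests on the female knockout libraries, since among controls Per3 was 0.836 ± 0.221 FPKM in males and 0.698 ± 0.0502 in females.

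FPKM is scaled by gene length, so levels of different genes can be set in order. Over the 12 libraries the mean FPKM was 5.34 for Cry1, 3.92 for Clock, 3.13 for Per1, 1.17 for Cry2, 0.923 for Per3, 0.900 for Arntl and 0.462 for Per2. Cry1 was above Clock in every pairing of libraries, at 4.81 to 6.62 against 3.24 to 4.35 FPKM. Clock and Per1 overlapped, Per1 at 2.36 to 4.04 FPKM. Per1 and the next gene, Cry2, did not overlap, whereas Cry2, Per3 and Arntl overlapped with each other at 0.844 to 1.64, 0.642 to 1.53 and 0.704 to 1.12 FPKM. Per2 was below all of them at 0.324 to 0.585 FPKM. Within the genes tested the mean of Cry1 was at percentile 44.1, that of Clock at 35.5, of Per1 at 29.8, of Cry2 at 9.41, of Per3 at 4.70 and of Arntl at 4.12. The activators were thus present at unequal transcript levels, with a Clock to Arntl ratio of 4.09 ± 0.554 in male controls, 5.13 ± 0.198 in male knockouts, 3.86 ± 0.646 in female controls and 4.74 ± 1.27 in female knockouts.

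The composition of the Period family differed in the female knockouts. Per3 made up 24.3% to 27.6% of the summed Period FPKM there and 16.8% to 17.6% in female controls, without overlap. In males it was 18.1% to 20.9% in knockouts and 14.2% to 20.6% in controls. Per1 was the main Period transcript in every library, and its share was 63.8 ± 2.95% in female knockouts and 72.3 ± 4.22% in female controls (SD, n = 3). Summed Period over summed cryptochrome FPKM was 0.790 to 0.923 in female knockouts against 0.556 to 0.698 in female controls, again without overlap, and in males 0.509 to 0.665 in knockouts against 0.612 to 0.869 in controls. These ratios restate the Period values in another form and were not tested.

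Library by library, Cry2 and Clock followed the interferon split. The 3 libraries of high interferon response had the 3 highest Cry2 values of all 12, at 1.36 to 1.64 FPKM against 0.844 to 1.19 in the other 9. They also had the 3 lowest Clock values, at 3.24 to 3.57 against 3.80 to 4.35 FPKM. Of the genes tested, 10.1% had these 3 libraries above the other 9 and 10.1% had them below, so 1 of 6 clock genes in each direction is close to the background. Cry1, Per2, Per3 and Arntl were not ordered by this split.

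**Figure D4:**
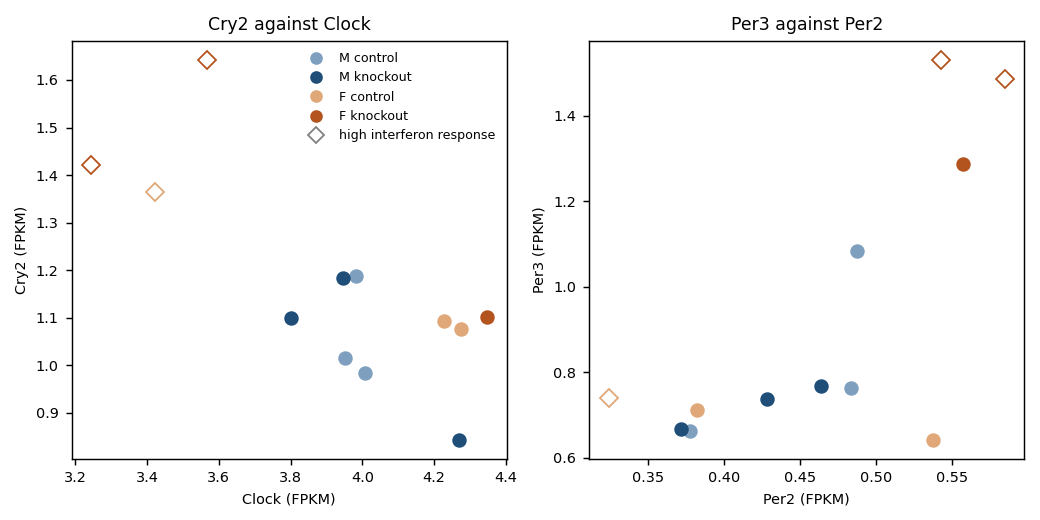
Each point is 1 library, with Cry2 against Clock FPKM on the left and Per3 against Per2 FPKM on the right. Open diamonds are the 3 libraries of high interferon response, which form the group of highest Cry2 (1.36 to 1.64 FPKM) and lowest Clock, and the 3 female knockouts lie at the upper right of the Per3 plot.

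Correlations of log2(FPKM + 1) were computed for the 15 pairs of the 6 genes other than Arntl. Over 12 libraries 5 pairs passed an adjusted Pearson permutation p of 0.05 and 0 passed by Spearman's rho, for which the lowest adjusted p was 0.0596. Because the 3 libraries of high interferon response lie apart for Cry2 and Clock, that pair is given over the other 9 libraries, where r was -0.31 (permutation p = 0.429, adjusted p = 0.690) and rho -0.27 (permutation p = 0.494, adjusted p = 0.742). In these 9 libraries 0 of the 15 pairs passed by either measure. Per2 and Per3 had r = 0.72 (permutation p = 0.00971, adjusted p = 0.0433) and rho = 0.64 (permutation p = 0.0286, adjusted p = 0.0716) over 12 libraries. Without the 2 libraries farthest from the median of Per2 r was 0.67, and within batches of 4 libraries it was 0.56, 0.93 and 0.84. After subtraction of group means r was 0.19. It was 0.74 among male and 0.67 among female libraries, and 0.60 without the 3 libraries of high interferon response. What the relation rests on was not tested. None of the 6 pairs with Arntl passed.

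Genes of the linked loops were examined as lists. In females Dbp, the D-box activator of the clock output, had 4.34, 5.47 and 4.29 FPKM in knockouts and 2.25, 3.37 and 1.91 in controls. Tef, a relative of Dbp that binds the same element, had 5.95, 5.94 and 5.62 FPKM in female knockouts and 4.88, 3.96 and 2.99 in controls. Neither gene overlapped between the female groups, where 6.38% of tested genes were separated and higher in knockouts, and their means were 187% and 148% of control (log2 differences 0.72 and 0.49, limma adjusted p = 0.366 for each). In males Dbp was at 1.72 to 3.65 FPKM in knockouts and 2.56 to 3.97 in controls, and Tef at 4.23 to 4.66 and 3.26 to 4.72. Of the 8 tested genes of 12 in this list, 0 passed an adjusted p in either direction in males or females, and 2 had an unadjusted p under 0.05 in each sex, beside 14.6% of all tested genes in males and 11.4% in females. The 2 in females were Dbp and Tef.

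In males the 2 were Nfil3, the D-box repressor, and Rora, an activator at ROR elements such as those of the Arntl gene. Nfil3 had 2.91, 3.57 and 3.86 FPKM in male knockouts and 5.78, 5.03 and 6.19 in male controls (60.9% of control, limma adjusted p = 0.186). Rora had 1.48, 1.44 and 1.51 FPKM in male knockouts and 2.40, 2.55 and 1.75 in male controls (66.2%, limma adjusted p = 0.152). Both were separated and lower in male knockouts, as 10.9% of tested genes were. In females Nfil3 overlapped (3.99 to 7.43 FPKM in knockouts, 4.05 to 5.88 in controls), as did Rora (1.52 to 1.84 and 1.71 to 1.94). Nr1d1, which encodes REV-ERB alpha, a repressor of Arntl, had 1.90, 1.57 and 1.66 FPKM in male knockouts against 1.37, 1.16 and 1.39 in controls. Nr1d1 was thus separated and higher in males, as 12.5% of tested genes were, without an unadjusted limma p under 0.05. In females it overlapped (1.26 to 2.42 against 1.41 to 1.70 FPKM). The part of Nr1d1 in the Arntl values was not tested. Averaged over both sexes the 3 of lowest p in the list were Rora (-0.24, limma adjusted p = 0.319), Tef (0.30, limma adjusted p = 0.350) and Nfil3 (-0.24, limma adjusted p = 0.550).

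**Figure D5:**
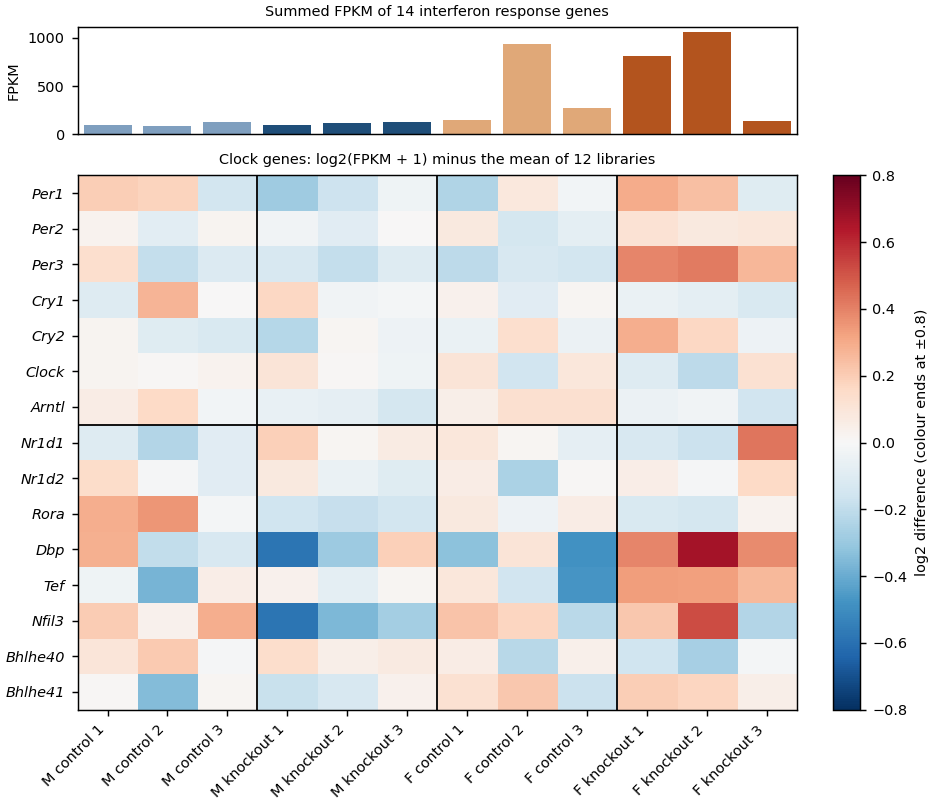
The upper panel gives the summed FPKM of 14 interferon response genes per library, and the lower panel gives log2(FPKM + 1) minus the mean of 12 libraries for core and secondary clock genes, red for higher and blue for lower. Per3, Dbp and Tef are red in all 3 female knockouts, including library 3 with an interferon sum of 139 FPKM. Arntl is blue in all 6 knockouts. These colours also occur in controls, as for Per3 in male control 1 (1.08 FPKM) and Arntl in male control 3 (0.863 FPKM).

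Partners and modifiers of the PER and CRY complex gave 0 genes past an adjusted limma p in any of the male, female and averaged comparisons. Timeless and Tipin, which form a complex at replication forks and have been tied to the clock, were separated and higher in male knockouts, as 12.5% of tested genes were, with Timeless at 124% and Tipin at 134% of control (limma adjusted p = 0.223 and 0.199). Tipin was at 77.0% of control in females (limma adjusted p = 0.401). Of 9 tested kinases and phosphatase genes of 10, 8 had a negative averaged difference with a median of -0.04, against -0.0025 over all genes tested, and Prkaa1, an AMP-activated kinase subunit that marks cryptochromes for removal, had the lowest p (-0.08, limma adjusted p = 0.589). The next were Csnk2a1 (-0.11, limma adjusted p = 0.639) and Csnk1d, which encodes CK1 delta (-0.05, limma adjusted p = 0.699).

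Among the ubiquitin enzymes that act on PER and CRY proteins, Fbxw11 had an averaged difference of -0.05 (limma adjusted p = 0.726) and Skp1 of -0.08 (limma adjusted p = 0.772). Of the 9 cofactors of the PER complex, Suv39h1, a histone methyltransferase, had the lowest p (0.15, limma adjusted p = 0.350), ahead of Sin3a (-0.06, limma adjusted p = 0.720) and Sfpq (0.07, limma adjusted p = 0.729).

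Inputs that act on Per1 were also examined. Of 8 tested genes of the cyclic AMP and serum response, 7 had a negative difference in males and 8 a positive one in females, with medians of -0.17 and 0.26 against -0.0049 and -0.0083 over all genes tested, and 0 passed an adjusted limma p. Over all genes tested 48.8% had a positive difference in males and 47.9% in females. The 3 highest female sums of this list were in the 3 libraries of high interferon response, at 379, 408 and 415 FPKM against 303 to 355 in the other 3, and 2 of these libraries are knockouts. The part of that response in the list's signs was not tested. Sik1 (0.14), Junb (0.12) and Fos (0.09) had the lowest averaged p, with limma adjusted p of 0.508, 0.728 and 0.739. In the glucocorticoid response list Sgk1 (-0.31), Tsc22d3 (-0.20) and the receptor gene Nr3c1 (-0.08) had limma adjusted p of 0.396, 0.460 and 0.521 in the average, and 0 of 7 tested genes passed.

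The protein-coding genes most like each clock gene across the 12 libraries were taken from the 10303 others tested, or from 10304 for Per2, which was not itself tested. They were ranked by Pearson's r of log2(FPKM + 1), as a description in libraries that share depth, batch and interferon state. Per1 was nearest to Fut7 (r = 0.92), Unc13d (0.89) and Rasal1 (0.89). Per3 was nearest to Ppox (0.91), Nscme3l (0.91) and Kansl1 (0.89), and Per2 to Zfp280d (0.85), Smug1 (0.84) and Tef (0.83). Cry1 was nearest to Etfrf1 (0.86), Pxk (0.86) and Lonp1 (0.85), and Arntl to Tbc1d32 (0.90), Pon3 (0.88) and Steap4 (0.88). Cry2 was nearest to Rbck1 (0.95), Tspo (0.93) and Map4k2 (0.93), and Clock to Ccdc88a (0.96), Fam91a1 (0.95) and Fam102b (0.95). The number of genes at r of 0.8 or more was 432 for Cry2 and 456 for Clock, against 141 for Per1, 66 for Per3, 21 for Arntl, 13 for Cry1 and 8 for Per2. The pair with the most such genes is also the pair that follows the interferon split.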

How the data were processed

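The authors' deposited table holds FPKM per gene for 12 libraries, with gene lengths and coordinates. Tools listed in the submitters' processing notes are HISAT2 2.0.5 and featureCounts 1.5.0-p3, with mm10 as the build. Gene starts and ends matched GENCODE M21 on GRCm38 for 1494 of 52080 shared identifiers (2.87%) and for 0 of the 7 genes described, so the build of printed gene coordinates is uncertain. Strand use in counting is not stated, so reads of overlapping antisense genes cannot be told apart. Products of FPKM and length came in whole steps for 100% of values, within a tolerance of 0.01, which gave back fragments. In a gene of 1 kb, 3 fragments equal 0.119 to 0.188 FPKM, for counting error only. 1 blank line of the table was not used.

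FPKM are not counts, so log2(FPKM + 1) values of the 12 libraries were fitted with limma 3.58.1 (R 4.3.3), 1 mean per group and a variance trend, for 12237 genes with 1 FPKM or more in at least 3 libraries. This scale understates changes of low genes. Tests were two-sided with Benjamini-Hochberg adjustment over all genes tested at 0.05. The fit was checked on simulated data with known changes. Those changes were set in genes of higher level than most clock genes here, without batch or interferon differences. That check therefore says little on genes of low level. Exact permutation tests used 20 arrangements per sex, 400 stratified by sex and 64 within same-numbered pairs, and correlations 100000 permutations. For the difference between the sexes, labels were exchanged within each sex, so its null is no genotype difference in either sex. Libraries of the same number carry the same batch number, and the same-numbered pairs rest on that number alone. Deviations from group means correlated above 0.1 in 4 of 18 same-numbered pairs (mean -0.00341) and in 13 of 36 other pairs (mean -0.000662). Same-numbered libraries were thus not more alike than others by this measure.

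The genes described and the lists were chosen with earlier results of these data known. Beside the 7 clock genes, up to 3 genes of lowest averaged p were named from each linked list, any that passed, and the 3 genes most like each clock gene. Dbp and Nr1d1 were named after their values were seen. 1 gene that the rule names is not reported here. Alternatives covered the pseudocount, filter, scaling, variance model, library weights, voom on rebuilt fragments with TMM factors, blocks, and libraries left out. Promoter windows are RefSeq's.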

Additional observations from a re-analysis of the deposited data

Results flagged for a closer look

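Per3 had a p under 0.05 in the exact test on the female minus male difference, as did 13.3% of all tested genes. It entered the tested set through the female knockouts. The null of that exact test is no genotype difference in either sex, so a difference in a single sex can lower its p. The female minus male difference was 0.60 on the log2(FPKM + 1) scale (female knockout 1.44 and control 0.698 FPKM, male knockout 0.725 and control 0.836 FPKM). The exact permutation p was 0.035 with genotype labels exchanged within each sex, and the limma p was 0.0034, or 0.200 after adjustment over all genes tested, which does not pass. Per3 was higher in knockout in 3 of 3 female same-numbered pairs. The male pairs differed by -0.26, 0.0043 and 0.0049 in log2 units, so 2 of the 3 were close to 0. On rebuilt fragments fitted with voom the difference was 1.25 (adjusted p = 0.174), and without the 3 libraries of high interferon response it was 0.53 (limma adjusted p = 0.412).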

How the results depend on the processing

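None of the 6 tested clock genes passed an adjusted p in any comparison under any alternative except library weights, where Per1 (0.40), Per3 (0.57), Cry2 (0.29) and Clock (-0.18) passed in females and Per1 (0.68) and Per3 (0.71) in the difference between the sexes. Arntl remained negative in all settings of the male, female and averaged comparisons (-0.36 to -0.09), and Per3 positive in all settings of the female and averaged ones (0.18 to 1.05). Per3 passed the stratified exact test only without male control 1 (0.26, exact p = 0.035).

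The count of all genes called in males (1) was 4 and 3 with pseudocounts of 0.1 and 0.5, 2 with a filter of 0.1 FPKM, 2 without a filter, 1356 with library weights, 12 by voom and 0 in the male libraries alone, without the 3 libraries of high interferon response or with the replicate block within sex. It ranged from 0 to 64 with 1 library left out (64 without male control 3). In females (0) it was 23 with the low filter, 75 without a filter, 3 without a variance trend, 3984 with library weights, 2 without the 3 libraries, and 0 to 1 with 1 library left out. In the average (1) it was 2, 13, 1610 with the low filter, no filter and weights, and 0 without the 3 libraries. In the difference between the sexes (0) it was 1 with pseudocount 0.1, 2, 16 and 3600 with the low filter, no filter and weights, 1 without the 3 libraries, and 0 to 1 with 1 library left out. Between the sexes in controls (7) the block within sex gave 4. With genotypes averaged (35) it was 58 and 53 with the smaller pseudocounts, 11 and 20 with the low filter and none, 54 with median ratio scaling, 2896 with weights, 139 by voom, 7 and 5 with the replicate block overall and within sex, 8 without the 3 libraries, and 7 to 1415 with 1 library left out (1415 without female knockout 3). Exact tests under 0.05 numbered 1 to 2 with 1 library left out (2 without male control 1). Pairs of clock genes that correlated fell from 5 to 0 without the 3 libraries. The replicate block changed no call of a clock gene.

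Values near 0 changed sign. Quantile normalization gave Cry2 0.057 in males and -0.024 in the difference, and Arntl -0.068 in female against male. Library weights gave Cry2 0.021 and Clock -0.011 in males, Per1 0.058 in the average, Arntl 0.035 in the difference, and Clock 0.056 in female against male controls. Voom gave Clock -9.6e-05 in males, and the block within sex gave Arntl -0.0012 in female against male. Without the 3 libraries Clock was 0.026 in females, 0.016 in the average, 0.020 in the difference and 0.077 and 0.087 in the sex comparisons, Cry2 was -0.0026 in the average, and Per1 -0.073 and Arntl -0.020 in female against male. There r was -0.21 for Per1 and Per2, 0.018 for Per1 and Cry1, 0.25 for Per3 and Clock and -0.053 for Cry1 and Clock. With 1 library left out, ranges that crossed 0 in males were -0.15 to 0.010 (Per3), -0.097 to 0.090 (Cry1), -0.066 to 0.056 (Cry2) and -0.031 to 0.036 (Clock). In the average they were -0.071 to 0.047 (Per1), -0.084 to 0.0095 (Cry1) and -0.083 to 0.00065 (Clock). In the difference they were -0.16 to 0.026 (Cry1) and -0.071 to 0.022 (Arntl), and among controls between the sexes -0.15 to 0.037 (Cry1), -0.051 to 0.077 (Clock) and -0.0077 to 0.085 (Arntl). The cause was not tested. Low fragment numbers limit Per2 (35 to 74) and Arntl (98 to 169).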
